A study of Mus musculus with 21 samples.

Results

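The responses of CD8 T cells to a low dose of IL-2 and of IL-15 were compared on day 5 of culture, in all 17920 cells of 3 single-cell RNA libraries out of 106456 cells in 21 libraries of the study. OT1 cells carry a transgenic T cell receptor for an ovalbumin peptide. Per the labels, naive CD8 OT1 cells of the mouse were stimulated through CD3 and CD28 by antibody-coated beads and then kept with IL-2, IL-15 or an IL-2 variant for up to 10 days. The control cells received the beads too. One library came from beads with wild type IL-2 at 5 IU/mL (4703 cells), one from beads with IL-15 at 5 IU/mL (7105 cells), and one from beads with no exogenous cytokine (6112 cells). The cells were chosen by library alone, with no use of a measured value. The labels give no age, sex or number of mice, and the extraction protocol speaks of tumour-infiltrating OT1 cells sorted for CD44, CD45.1 and CD8 whereas the growth protocol describes culture, so the libraries are taken here as cultured cells.

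IL-2 and IL-15 signal through the same receptor pair, IL-2 receptor beta (Il2rb) and the common gamma chain (Il2rg), and through JAK1, JAK3 and STAT5. They differ in their private alpha chains: Il2ra (CD25) raises the affinity of a T cell for IL-2, and IL-15 is usually presented on Il15ra by a neighbouring cell. In CD8 T cells, IL-2 is known for driving division and effector genes, and IL-15 for survival and the upkeep of memory cells.

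Each condition is 1 library, so no test, p-value or standard error can be given, and the intervals below (95%, exact) cover counting error only. Both cytokine libraries were set against the same control library. A level that is off in that one control would show up in both comparisons, and this cannot be told apart from a response shared by the 2 cytokines. The direct comparison of IL-15 with IL-2 does not use the control. Levels are CPM, the unique molecular identifiers (UMIs) of a gene summed over the cells of a library and scaled to the library's total in the usual way, and differences are between values of log2(CPM + 1), so 1 is about 2-fold and the change of scarce genes is understated.

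The 3 libraries held 20044689 to 29890672 UMIs, with a median of 3633 to 3942 UMIs and 1296 to 1407 genes a cell. Ribosomal protein genes took 35.4% of UMIs without cytokine, 36.9% with IL-2 and 38.3% with IL-15. The libraries shared 9 to 13 cell barcodes in each pair. Cd3d was seen in 98.4% to 99.5% of cells and Cd8b1 in 84.97% to 91.15%, whereas Cd4 was seen in at most 0.262%. Cd8a, the other CD8 marker, varied more, at 74.25% of cells without cytokine, 59.22% with IL-2 and 64.91% with IL-15. Of the marker lists for other cell types, Ms4a1 (B cells), Lyz2 and Csf1r (myeloid cells), Ncr1 (NK cells), Pf4 (platelets) and 3 haemoglobin genes were at 0 in the 3 libraries. Other members of these lists were seen. Cd79b, a chain of the B cell receptor complex, was in 3.49% of cells without cytokine, 6.29% with IL-2 and 4.07% with IL-15 (9.19, 16.6 and 10.47 CPM), its partner Cd79a was at 0.701, 1.15 and 0.468 CPM, and the NK receptor gene Klrb1c was at 0, 0.549 and 0.569 CPM. Trdc, the T cell receptor delta constant gene, was seen in 33.5% to 34.4% of cells while the gamma constant genes Tcrg-C1 and Tcrg-C2 stayed at or under 2.79 CPM. The summed level of the 5 myeloid markers was 2.84 CPM without cytokine, 8.93 CPM with IL-2 and 2.78 CPM with IL-15, mainly through Itgam (4.54 CPM with IL-2). The part of these markers in the differences below was not tested.

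With IL-2, 113 of 5281 genes with at least 20 CPM in either library were at least 2-fold higher than without cytokine (2.14%), and 19 were at least 2-fold lower (0.36%). With IL-15, 75 of 5296 genes were at least 2-fold higher (1.42%) and 17 were at least 2-fold lower (0.321%). Between the cytokines, 22 of 5167 genes were at least 2-fold higher with IL-15 (0.426%) and 49 were at least 2-fold lower (0.948%). Differences above 0 made up 33.2%, 38.0% and 55.6% of the genes tested in the 3 comparisons, which are the backgrounds for the counts of list members below. The median of a list is over its members with at least 1 CPM, unless it is said to be over the genes tested, those with at least 20 CPM. The median difference over all genes tested was -0.125 for IL-2 against none, -0.077 for IL-15 against none and 0.035 for IL-15 against IL-2. Where neither a Mki67 nor a Top2a UMI was present in a cell, the genes at least 2-fold higher with IL-15 than without cytokine numbered 22 in place of 75, and without cells of more than 2 times their library's median UMIs they numbered 38.

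Genes of division were higher with either cytokine than without over all cells of a library. Mki67, the Ki-67 proliferation antigen, was at 36.3 CPM without cytokine (interval 34.1 to 38.8), 112 CPM with IL-2 (107 to 117) and 131 CPM with IL-15 (127 to 135). Both cytokine libraries stood above the control beyond counting error, with differences of 1.59 and 1.82, and the direct difference was 0.22. Cenpf, a kinetochore protein, was at 20.2, 69.6 and 74.1 CPM in the same order, and Nusap1, a spindle protein, at 35.3, 89.8 and 117 CPM. Top2a, the topoisomerase that untangles chromosomes before mitosis, was at 104, 212 and 315 CPM. Of the 55 genes of G2 and mitosis, 37 were tested for IL-2, of which 16 were at least 2-fold higher and 0 lower, and 34 were above 0. For IL-15, 24 of 39 were at least 2-fold higher, 0 lower, and 37 above 0. The median over the 55 genes, all with at least 1 CPM, was 1.03 for IL-2 and 1.23 for IL-15. Between the cytokines 0 of 39 were 2-fold apart, 33 were above 0 and the median was 0.18. Without cells of more than 2 times the median UMIs, IL-2 had 12 of 26 past 2-fold upward and 1 downward, and IL-15 had 8 of 22 upward. The medians over the genes tested were then 0.83 and 0.37, against 0.94 and 1.23 with all cells. The direct comparison turned, with 7 of 26 above 0 and a median over the genes tested of -0.15 (0.21 with all cells). In cells with neither a Mki67 nor a Top2a UMI, 4 of 14 were above 0 with IL-2 and 4 of 13 with IL-15 (medians over the genes tested -0.11 and -0.14). Both genes are on the list and were at 0 CPM in these cells, so they were not among the genes tested there. Choosing cells by genes of the list may also lower its other members, and the size of that effect was not tested.

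The promoters of this group are shown because its members moved together, and their letters are from RefSeq (build GRCm38.p6), the 250 bases before the start of the gene. The letters searched on both strands were TTTGAA (the cell cycle homology region, a motif of late cell cycle genes), TTTGGCGC or TTTCCCGC (E2F, of S phase genes) and TTCNNNGAA (STAT5). E2F matches overlapped no other match, and STAT5 and TTTGAA matches overlapped in 113 of 32851 promoters, none of them printed here. TTTGAA was found in 21 of 53 promoters of G2 and mitosis genes (39.6%), in 6 of 38 promoters of S phase genes (15.8%) and in 16.0% of all promoters. The E2F letters were found in 9 of 38 S phase promoters (23.7%), in 2 of 53 G2 and mitosis promoters (3.77%) and in 1.3% of all. The STAT5 letters were found in 1 of 13 promoters of the listed STAT5 targets (7.69%), that of Socs3, and in 7.02% of all. Some genes have more than 1 promoter and some were not searched. The promoters are those of 48 of 55 G2 and mitosis genes, 34 of 46 S phase genes and 9 of 13 STAT5 targets. Such matches describe letters and show no binding. The 3 members of each cell cycle list that hold its motif and differed most between IL-15 and no cytokine (at 20 CPM or more) are printed, with matches to any of the 3 motifs in capitals:
Mki67, chr7:135716380-135716629, - strand: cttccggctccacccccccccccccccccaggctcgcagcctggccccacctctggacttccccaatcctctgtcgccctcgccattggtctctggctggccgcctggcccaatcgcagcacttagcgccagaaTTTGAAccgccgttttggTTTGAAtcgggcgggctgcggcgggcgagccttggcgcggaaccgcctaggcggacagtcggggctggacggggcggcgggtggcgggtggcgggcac
Kif11, chr19:37376132-37376381, + strand: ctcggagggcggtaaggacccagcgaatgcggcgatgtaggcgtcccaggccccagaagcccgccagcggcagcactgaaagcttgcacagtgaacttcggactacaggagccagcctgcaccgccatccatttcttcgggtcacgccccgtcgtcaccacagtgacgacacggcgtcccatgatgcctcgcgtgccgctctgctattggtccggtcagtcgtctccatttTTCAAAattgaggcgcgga
Top2a, chr11:99024190-99024439, - strand: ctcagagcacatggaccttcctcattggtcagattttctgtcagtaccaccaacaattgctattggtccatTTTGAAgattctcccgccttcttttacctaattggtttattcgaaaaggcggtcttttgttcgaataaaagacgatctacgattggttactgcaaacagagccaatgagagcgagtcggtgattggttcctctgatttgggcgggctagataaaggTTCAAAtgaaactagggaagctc
Cdca7, chr2:72475969-72476218, + strand: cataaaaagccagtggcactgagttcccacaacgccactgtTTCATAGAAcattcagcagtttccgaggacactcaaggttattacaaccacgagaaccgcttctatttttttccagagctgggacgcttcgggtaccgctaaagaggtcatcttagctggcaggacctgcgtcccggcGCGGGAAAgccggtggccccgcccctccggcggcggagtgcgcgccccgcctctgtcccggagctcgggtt
Mcm5, chr8:75109259-75109508, + strand: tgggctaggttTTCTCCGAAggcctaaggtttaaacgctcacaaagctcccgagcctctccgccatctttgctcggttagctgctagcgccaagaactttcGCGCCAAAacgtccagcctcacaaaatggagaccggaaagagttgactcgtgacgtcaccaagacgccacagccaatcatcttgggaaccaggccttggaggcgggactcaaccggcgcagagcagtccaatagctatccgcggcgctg
Hells, chr19:38930740-38930989, + strand: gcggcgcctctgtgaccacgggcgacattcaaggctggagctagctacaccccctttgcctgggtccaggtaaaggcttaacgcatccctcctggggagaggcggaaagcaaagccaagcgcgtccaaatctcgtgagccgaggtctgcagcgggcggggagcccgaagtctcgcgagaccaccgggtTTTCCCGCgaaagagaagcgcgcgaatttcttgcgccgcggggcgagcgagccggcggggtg
In Mki67 the 2 matches to TTTGAA begin 116 and 98 bases before the start, and in Top2a 179 and 23 bases before it. The capitals in Cdca7 and Mcm5 mark an E2F and a STAT5 match each.

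Cells with a UMI of Mki67 or Top2a were also more frequent. After each cell was thinned to 2000 UMIs (109, 75 and 184 cells were too shallow and left out), a Mki67 or Top2a UMI was found in 8.30% of 6003 cells without cytokine (7.61% to 9.02%), in 12.4% of 4628 cells with IL-2 (11.5% to 13.4%) and in 15.1% of 6921 cells with IL-15 (14.3% to 16.0%). Without thinning the shares were 13.8%, 18.7% and 21.1%. Without cells of more than 2 times the median UMIs the shares were 6.29%, 10.1% and 10.6%, so that both cytokines stayed above the control and were close to each other. A looser rule, at least 3 UMIs of any gene on both cell cycle lists, turned the order: 85.1% without cytokine, 75.5% with IL-2 and 78.2% with IL-15. The 2 lists include genes that cells without a Mki67 or Top2a UMI also hold in quantity. Smc4 was at 486 CPM without cytokine, 216 with IL-2 and 335 with IL-15 in those cells. The part of such genes in the turned order was not tested.

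**Figure D1:**
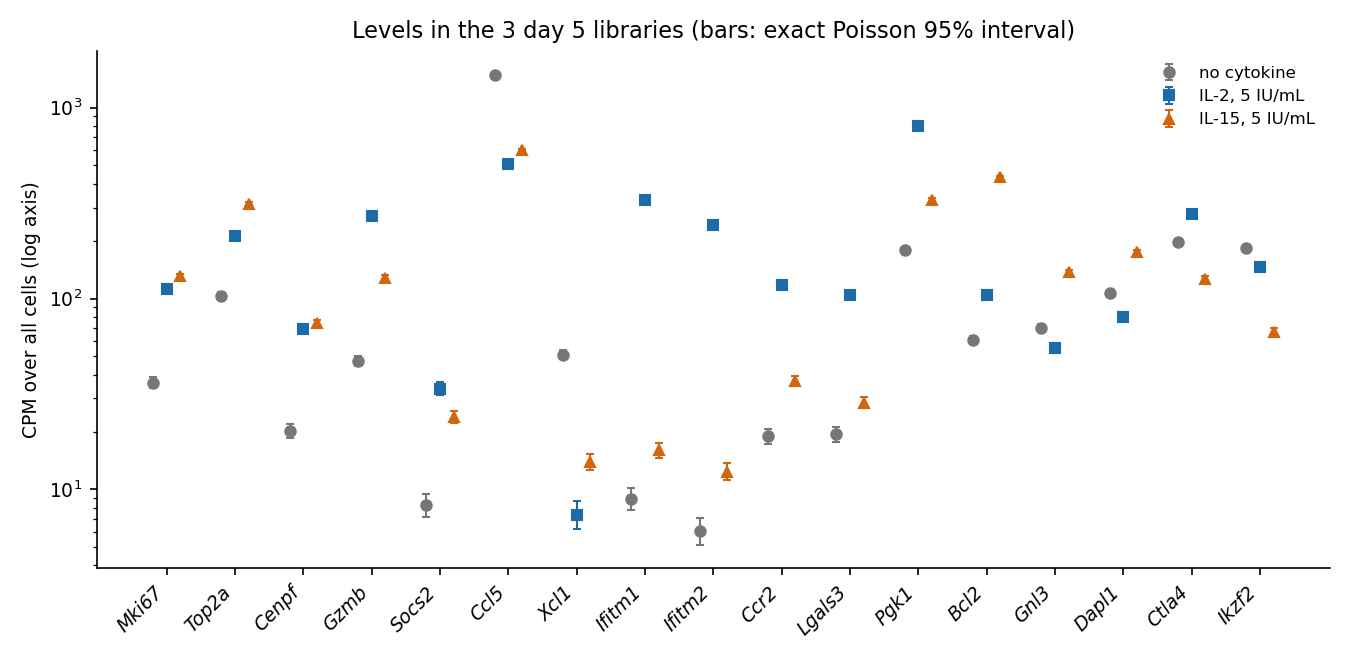
Levels of 17 genes in the 3 day 5 libraries, in CPM on a log axis, with exact Poisson intervals that cover counting error only. Mki67, Top2a and Cenpf lie higher with either cytokine, Ifitm1 and Ifitm2 stand apart with IL-2, and Bcl2 stands apart with IL-15.

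S phase genes were higher with IL-15 than with IL-2. Of the 29 S phase genes tested between the cytokines, 29 were above 0, that is higher with IL-15, 2 of them by at least 2-fold, and the median over 46 genes was 0.66. Against no cytokine, 4 of 20 were above 0 with IL-2 (median -0.12, 0 past 2-fold) and 25 of 29 with IL-15 (median 0.51, 3 at least 2-fold higher). Without cells of more than 2 times the median UMIs, 11 of 18 were above 0 for IL-15 against none, 0 of them past 2-fold, and the median over the genes tested was 0.09 in place of 0.33. In the direct comparison 16 of 18 were then above 0, with a median over the genes tested of 0.255 in place of 0.595. Pcna, the sliding clamp of DNA polymerase, was at 58.9 CPM without cytokine, 65.5 with IL-2 and 108 with IL-15. Mcm5, a subunit of the replicative helicase, was at 18.1, 16.2 and 32.8 CPM, and Cdca7 at 10.7, 8.78 and 22.3 CPM. Clspn, a replication checkpoint mediator, was at 9.31, 10.7 and 23.8 CPM. The replication-dependent histone gene Hist1h2ap was at 30.3, 126 and 351 CPM, Hist1h1b at 87.4, 165 and 275 CPM and Hist1h2ae at 14.7, 50.7 and 65.0 CPM. Hist1h2ap is uncertain, since 93.4% of the 31-base words of its transcripts occur in other genes (Hist1h2ae 47.9%). Among cells with a Mki67 or Top2a UMI (846 without cytokine, 879 with IL-2 and 1500 with IL-15), 41 of 41 S phase genes were higher with IL-15 than with IL-2 (median over the genes tested 0.69). Among the other cells, 13 of 15 S phase genes were above 0 between the cytokines, with a median over the genes tested of 0.26. Against no cytokine, 1 of 17 were above 0 with IL-2 and 3 of 17 with IL-15 in these cells (medians over the genes tested -0.41 and -0.19), which were chosen by genes of the cell cycle. Hist1h2ap was no higher with IL-15 (18.2 CPM) than with IL-2 (a difference of -0.13).

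Genes of cholesterol synthesis were higher with either cytokine. Of those tested, 5 of 11 were at least 2-fold higher with IL-2 and 4 of 12 with IL-15, 0 were lower, and the medians over all 23 were 0.72 and 0.69. Idi1, an isomerase of the mevalonate pathway, was at 9.74 CPM without cytokine, 25.9 with IL-2 and 26.5 with IL-15, and Hmgcs1, an early enzyme of that pathway, at 22.1, 46.0 and 40.2 CPM. The direct median was -0.01, with 0 of 13 past 2-fold. Without cells of more than 2 times the median UMIs, 4 of 11 were at least 2-fold higher with IL-2 and 1 of 8 with IL-15. Among cells with a Mki67 or Top2a UMI, 10 of 16 were at least 2-fold higher with each cytokine. Among the others, 1 of 9 were with IL-2 and 0 of 7 with IL-15. In those other cells 8 of 9 were still above 0 with IL-2 and 5 of 7 with IL-15 (medians over the genes tested 0.64 and 0.26).

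Listed STAT5 targets were mixed. Socs2, a feedback inhibitor of cytokine receptors, was at 8.26 CPM without cytokine, 33.7 with IL-2 and 24.1 with IL-15. Cish, another such inhibitor, was at 10.7, 17.2 and 18.5 CPM. Pim2, a survival kinase, was at 46.4, 61.5 and 94.1 CPM, and Myc, the growth regulator, at 55.1, 95.6 and 102 CPM. Of the 10 tested, 1 was at least 2-fold higher with IL-2 (Socs2) and 3 with IL-15 (Socs2, Pim2 and Bcl2), with 0 lower, and the medians over 13 were 0.40 and 0.59. Pim2 lay at the threshold, and the count for IL-15 was 2 with at most 5% mitochondrial UMIs or the mean over cells. It was 1 (Bcl2) with a pseudocount of 10 CPM, where the scarcer Socs2 fell under 2-fold as well. Among the receptors, Il2ra was at 34.0, 78.3 and 50.8 CPM and Il2rb at 142, 224 and 202 CPM, whereas Il7r, the IL-7 receptor, was at 700, 560 and 380 CPM. Il2ra with IL-2 was the 1 of 12 receptor and JAK-STAT genes past 2-fold against no cytokine. The metallothionein Mt1, which binds zinc and copper, was at 25.8, 104 and 68.7 CPM.

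Several chemokine and interferon-stimulated genes were lower with either cytokine. Ccl5, a T cell chemokine, was at 1482 CPM without cytokine (1467 to 1497), 505 with IL-2 (495 to 515) and 602 with IL-15 (593 to 611). The control stood highest, with differences of -1.55 and -1.30. Xcl1, a chemokine for cross-presenting dendritic cells, was at 50.9, 7.38 and 13.9 CPM, and Ccl4 at 35.6, 14.7 and 20.2 CPM. Art2b, an ADP-ribosyltransferase, was at 61.4, 22.1 and 29.4 CPM, and Itgae, the CD103 integrin chain, at 40.9, 13.5 and 19.0 CPM. Serpina3g, a serpin of activated T cells, was at 55.0, 23.2 and 31.4 CPM, and Ccr7, the lymph node homing receptor, at 267, 139 and 198 CPM. Of the 17 interferon-stimulated genes tested, 0 were above 0 with IL-2 and 0 with IL-15, and 2 and 1 were at least 2-fold lower. The medians over the genes tested were -0.58 and -0.61. Isg15, a ubiquitin-like protein of that response, was at 38.7, 15.8 and 18.3 CPM. Scaling by TMM left 1 of 17 above 0 with IL-2 and 0 of 17 with IL-15. Between the cytokines 8 of 16 were above 0. Lpxn, an adhesion adaptor, and Mir142hg, the host transcript of miR-142, were among the lowest with IL-15 (107 to 51.6 CPM and 294 to 146 CPM against the control). Gm14085 and Gm12840 were also among the lowest (57.4 and 82.1 CPM without cytokine, 25.2 and 41.5 with IL-2, 25.9 and 33.9 with IL-15) and are uncertain, since 52.5% and 62.0% of their words occur in other genes. AY036118, higher with either cytokine (319, 719 and 1082 CPM), lies wholly within other transcripts and cannot be assigned.

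**Figure D2:**
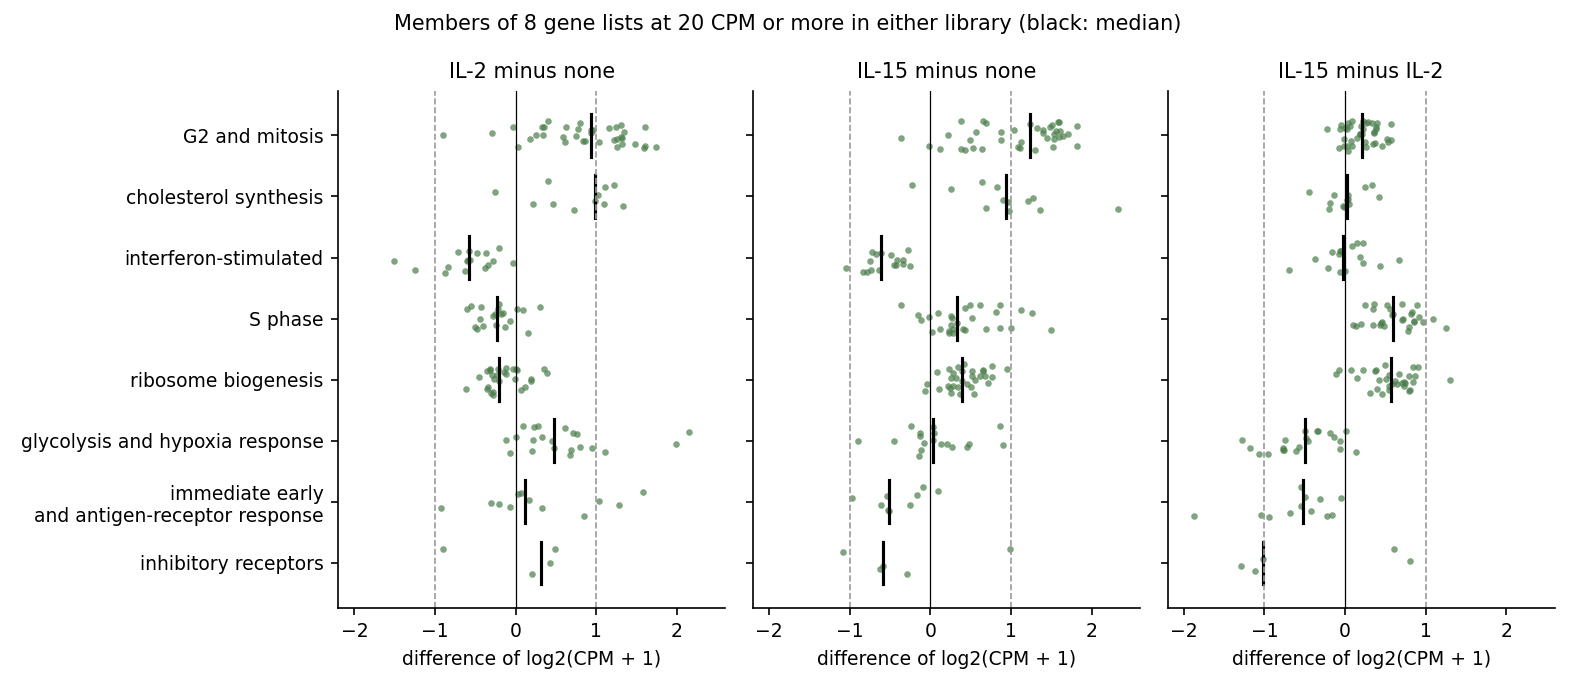
Differences of log2(CPM + 1) for the members of 8 gene lists with at least 20 CPM in either library, in the 3 comparisons (each point 1 gene, black line the median of the points, dashed lines 2-fold). Mitotic and cholesterol genes lie to the right in both comparisons with the control and near 0 in the direct one, where S phase and ribosome biogenesis genes lie to the right and glycolysis genes to the left. The first and second panels share the control library.

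Among genes with at least 50 CPM in either library, those furthest apart between the cytokines were the interferon-induced transmembrane proteins, which restrict virus entry. Ifitm1 (chr7:140967221-140969825, plus strand, GENCODE vM21 on GRCm38) was at 8.96 CPM without cytokine (7.84 to 10.2), 327 with IL-2 (319 to 335) and 16.1 with IL-15 (14.7 to 17.6). Ifitm2 was at 6.04, 244 and 12.4 CPM and Ifitm3 at 4.13, 66.0 and 6.09 CPM. IL-2 stood apart for these 3 neighbouring genes, with differences of 5.04, 5.12 and 3.71 against no cytokine, and of -4.26, -4.19 and -3.24 for IL-15 against IL-2. Ifitm2 overlaps Gm45717 on 40.9% of its exonic bases, so its level is less certain. The 3 genes did not move with the list of interferon-stimulated genes, to which they were not assigned. A UMI of at least 1 of them was found in 28.2% of thinned cells with IL-2 (26.9% to 29.5%), in 2.90% with IL-15 and in 1.67% without cytokine. Within the IL-2 library, Ifitm2 was found in 52.8% of the 682 cells with an Ifitm1 UMI and in 13.6% of the 3946 without one. These libraries hold no second cell type that should lack the genes, so no background share from free RNA can be given.

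Further genes were highest with IL-2. Ccr2, a receptor for inflammatory chemokines, was at 19.0 CPM without cytokine, 118 with IL-2 and 37.1 with IL-15. Lgals3, the galectin-3 gene, was at 19.5, 104 and 28.5 CPM, and Serpinb6b, a protease inhibitor, at 18.7, 88.7 and 25.1 CPM. Impa2, an inositol monophosphatase, was at 50.3, 119 and 40.0 CPM. For Ccr2, Lgals3, Serpinb6b and Impa2 the IL-15 library lay within 1 log2 unit of the control. Gzmb, the cytotoxic protease granzyme B, was intermediate with IL-15: 47.2 CPM without cytokine (44.6 to 49.9), 272 with IL-2 (264 to 279) and 128 with IL-15 (124 to 132). Gzma was at 20.99, 55.2 and 22.1 CPM and Gzmc at 3.04, 28.5 and 6.59 CPM. These 3 granzymes were the effector genes at least 2-fold lower with IL-15 than with IL-2, of 11 tested. The effector list as a whole was mixed with IL-2 against none, with 4 of 12 at least 2-fold higher (the 3 granzymes and Klrd1), and 3 lower (Xcl1, Ccl5 and Ccl4). Its medians differed in sign, at 0.63 over the 12 genes tested and -0.16 over the 22 with at least 1 CPM. With IL-15, 1 of 10 was higher (Gzmb) and 2 lower (Xcl1 and Ccl5). The signalling phosphatases Dusp6 and Dusp5, feedback brakes on ERK, were at 8.57, 22.2 and 5.32 CPM and at 8.69, 27.9 and 13.1 CPM. Of the 12 immediate early and antigen-receptor genes tested between the cytokines, 0 were above 0.

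Glycolytic genes were higher with IL-2. Pgk1, an ATP-forming enzyme of glycolysis, was at 180 CPM without cytokine (174 to 185), 800 with IL-2 (788 to 813) and 328 with IL-15 (322 to 335), although 68.3% of its words occur in other genes, mostly the retrocopy Pgk1-rs7. Aldoa, the aldolase of glycolysis, was at 419, 904 and 430 CPM, and Gapdh at 895, 1559 and 915 CPM. Bnip3, a hypoxia-induced mitochondrial protein, was at 14.8, 24.4 and 10.2 CPM. Of 21 tested, 19 were above 0 with IL-2 (3 at least 2-fold higher, median over 26 genes 0.46), against 10 of 18 with IL-15 (0 past 2-fold, median -0.08, or 0.035 over the genes tested). Between the cytokines 19 of 21 were lower with IL-15, 3 by at least 2-fold, with a median of -0.54. In cells lacking both Mki67 and Top2a UMIs, 4 of 21 were at least 2-fold lower with IL-15 and 1 of 21 was above 0. Of the glucose transporters, Slc2a3 was at 38.4, 59.2 and 34.96 CPM, highest with IL-2, while Slc2a1 stayed between 12.1 and 12.8 CPM in the 3 libraries. The 77 oxidative phosphorylation genes tested moved little, with 0 past 2-fold in any comparison and medians of -0.16, -0.04 and 0.17. Their direction for IL-15 against none hung on the scaling, with 29 of 77 above 0 here and 41 of 77 by TMM.

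**Figure D3:**
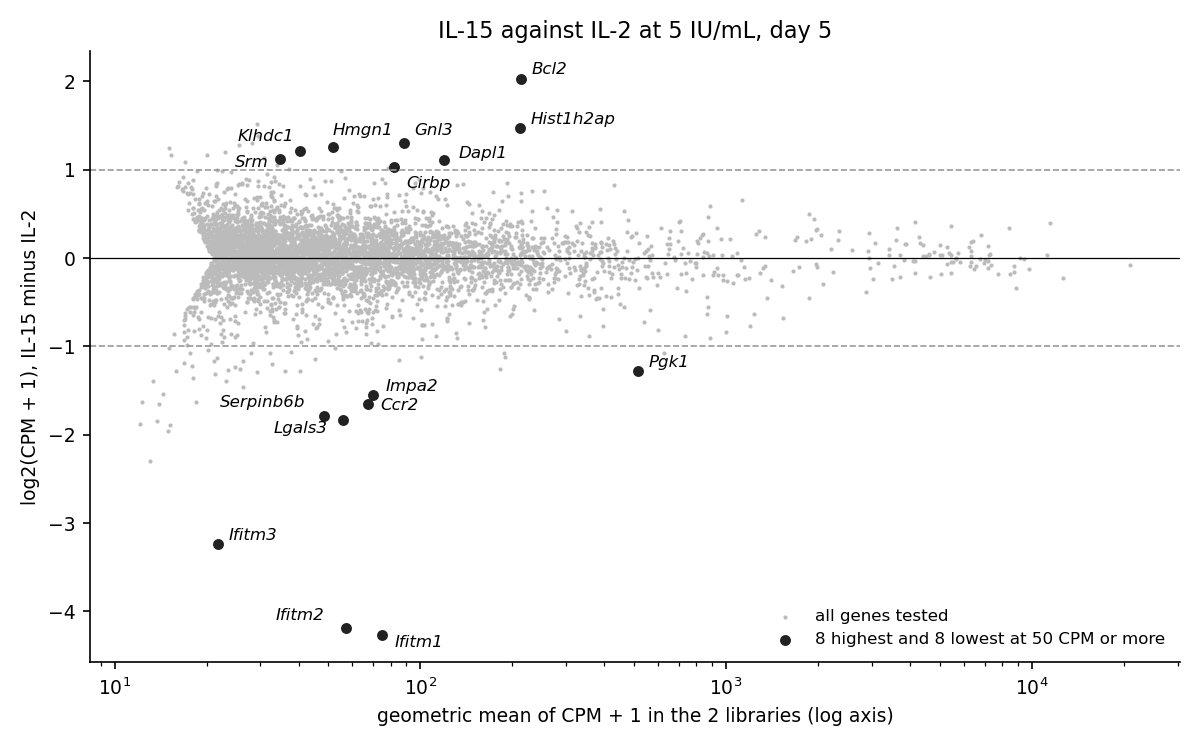
Difference of log2(CPM + 1) between IL-15 and IL-2 against the mean level of each of the 5167 genes tested (log axis, dashed lines 2-fold). The 8 highest and 8 lowest genes with at least 50 CPM in either library are labelled, with the 3 Ifitm genes lowest and Bcl2 highest.

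Bcl2, which blocks the mitochondrial path to cell death, differed most in favour of IL-15 among genes with at least 50 CPM. It lies at chr1:106538178-106714274 on the minus strand (GENCODE vM21 on GRCm38). Its level was 60.8 CPM without cytokine (57.8 to 63.9), 105 with IL-2 (101 to 110) and 432 with IL-15 (425 to 440). The 3 intervals did not overlap, with differences of 0.78 and 2.81 against no cytokine and 2.03 between the cytokines. A Bcl2 UMI was found in 10.4% of thinned cells without cytokine, 16.5% with IL-2 and 53.9% with IL-15. Between the cytokines, other survival genes were closer. Mcl1 was at 290, 222 and 241 CPM, Bcl2l1 at 5.65, 8.48 and 14.2 CPM, and the pro-death gene Bcl2l11 at 38.8, 79.2 and 56.1 CPM.

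Genes of ribosome assembly were higher with IL-15. Gnl3 (nucleostemin), a nucleolar GTPase, was at 70.4 CPM without cytokine (67.2 to 73.8), 55.1 with IL-2 (51.9 to 58.4) and 138 with IL-15 (133 to 142). Nop56, a core protein of the particles that modify ribosomal RNA, was at 86.3, 71.0 and 124 CPM, Dkc1, the pseudouridine synthase, at 69.6, 56.3 and 102 CPM, and Ncl, nucleolin, at 534, 610 and 817 CPM. Of 32 ribosome biogenesis genes tested, 30 were above 0 for IL-15 against none (median over 36 genes 0.41) and 30 for IL-15 against IL-2 (median 0.57), with 1, Gnl3, past 2-fold. For IL-2 against none 8 of 28 were above 0, with a median of -0.15. Npm1, the abundant nucleolar chaperone, ran the other way between the cytokines (1075, 1367 and 1267 CPM). In cells lacking both UMIs 30 of 32 were above 0, with a median over the genes tested of 0.61 (0.57 in all cells). Srm, which makes the polyamine spermidine, was at 33.6, 22.7 and 50.5 CPM.

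The other genes named as highest with IL-15 against IL-2 were Dapl1, a gene of naive and memory T cells (107, 80.3 and 174 CPM), Cirbp, a cold-induced RNA-binding protein (84.6, 56.3 and 116 CPM), Klhdc1 (32.5, 25.6 and 60.6 CPM) and Hmgn1, a nucleosome-binding protein (67.0, 32.4 and 78.9 CPM). In each, the IL-2 library was the lowest of the 3. Among other naive and memory genes, Tcf7, the TCF-1 factor, was at 348, 295 and 252 CPM. Of 16 such genes tested between the cytokines, 8 were above 0 and 2 (Dapl1 and Myb) were at least 2-fold higher with IL-15. Myb was highest without cytokine and lowest with IL-2. It was at 33.0, 9.02 and 24.9 CPM in cells with neither a Mki67 nor a Top2a UMI. In the other cells it was at 37.2, 9.90 and 15.1 CPM. The list of inhibitory receptors, which also holds Tox, a transcription factor and not a receptor, was mixed. Ctla4 was at 198, 277 and 127 CPM, Lag3 at 38.8, 44.8 and 17.8 CPM and Cd160 at 55.0, 73.9 and 36.1 CPM. These 3 of the 5 tested were at least 2-fold lower with IL-15 than with IL-2, against 0.948% of all genes, while the other 2, Btla (10.8, 12.4 and 22.5 CPM) and Tox (27.6, 14.3 and 22.4 CPM), were higher with IL-15 than with IL-2. Ikzf2, the Helios transcription factor, was at 184, 147 and 67.2 CPM.

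The list of homing and adhesion genes also holds the IL-18 receptor chains Il18r1 and Il18rap. Of its genes tested, 4 of 14 were at least 2-fold higher with IL-2 (Cd44, Il18r1, Il18rap and Ccr2) and 1 lower (Itgae). With IL-15, 1 of 14 was higher (Il18rap) and 1 lower (Itgae). Il18r1, a chain of the IL-18 receptor, was at 25.2 CPM without cytokine, 69.4 with IL-2 and 42.4 with IL-15, and Cd44, the hyaluronan receptor of activated cells, at 24.1, 52.0 and 32.8 CPM. Of the costimulatory receptors, 4 of 4 tested were above 0 with IL-2 and 0 of 3 with IL-15, with 0 past 2-fold. In the apoptosis and p53 list 1 of 13 was at least 2-fold higher with IL-2 (Bcl2l11) and 1 of 13 lower with IL-15 (Bcl2a1b, a BCL-2 relative, 30.6 to 13.5 CPM). The lists for quiescence, fatty acid oxidation, amino acid uptake and cytosolic ribosomal proteins held 0 genes past 2-fold in any of the 3 comparisons, with medians between -0.25 and 0.21. For IL-15 against none, 64 of 80 ribosomal protein genes and 8 of 11 amino acid uptake genes were above 0, against 38.0% of all genes. Above 0 were also 4 of 15 quiescence genes and 2 of 13 fatty acid oxidation genes, counts too small to be set apart from that share. The summed level of the quiescence genes was 4394 CPM without cytokine, 3701 with IL-2 and 2830 with IL-15, a sum in which abundant members weigh most.

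The order of the libraries was read again in cells with and without a Mki67 or Top2a UMI. Classed before thinning, such cells had median depths of 4534 to 5150 and 3475 to 3826 UMIs. For the split shares that follow, cells were classed after thinning. After thinning, Gzmb was found in 38.5% of cells with a Mki67 or Top2a UMI and 27.1% of the others with IL-2, in 23.3% and 13.6% with IL-15, and in 10.2% and 4.18% without cytokine. Bcl2 was found in 45.8% and 55.4% of these cells with IL-15, in 14.3% and 16.8% with IL-2, and in 11.65% and 10.25% without cytokine. With IL-15, cells with a Bcl2 UMI held a Mki67 or Top2a UMI in 12.8% of 3733 cells, against 17.8% of 3188 cells without one. The shares were 10.7% and 12.7% with IL-2. Without cytokine they ran the other way, at 9.33% and 8.18%, with overlapping intervals. Ccl5 was found in 44.1% of all thinned cells without cytokine (42.8% to 45.3%), 18.9% with IL-2 and 28.7% with IL-15. Unthinned shares of all cells, in the order none, IL-2 and IL-15, were 8.43%, 43.1% and 25.1% for Gzmb, 18.9%, 30.3% and 72.6% for Bcl2 and 54.3%, 27.4% and 38.2% for Ccl5.

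**Figure D4:**
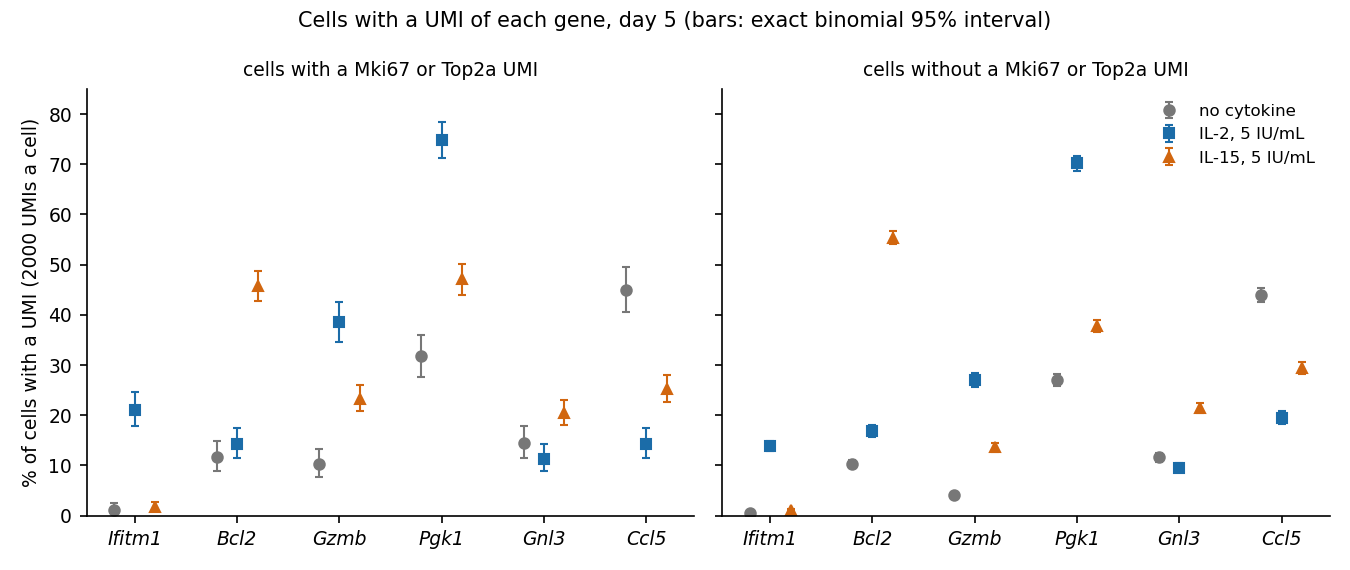
Share of cells with a UMI of 6 genes after thinning to 2000 UMIs a cell, split by a Mki67 or Top2a UMI, with exact binomial intervals that cover counting error only. The order of the 3 libraries is the same in both panels for Ifitm1, Gzmb, Pgk1 and Ccl5, and IL-15 is highest for Bcl2 and Gnl3 in both. For Ifitm1 the intervals of IL-15 and no cytokine overlap in cells with a Mki67 or Top2a UMI, so their order there is open.

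The direct difference was then read in 3 pairs of libraries that share none with the day 5 pair at 5 IU/mL. On day 3, 16 of the 22 genes at least 2-fold higher with IL-15 were above 0 and 33 of the 49 lower genes were below 0, against 48.6% and 51.4% of all genes tested. Of the lower genes 2 reached 2-fold on day 3 (0.452% of all), and of the higher genes 0, as for all genes tested. On day 10, 13 of the 22 were above 0 (42.4% of all genes tested), 7 of them by at least 2-fold (2.42% of all), and 4 were at least 2-fold the other way. Of the 49, 46 were below 0 on day 10 (57.6% of all genes tested), 43 of them by at least 2-fold (9.19% of all). On day 5 at 50 IU/mL, 10 of the 22 were at least 2-fold higher (4.29% of all) and 27 of the 49 at least 2-fold lower (8.01% of all), with 3 and 1 at least 2-fold the other way. The titles mark these 2 libraries as IL-2 and IL-15 while their treatment labels read Interleukin-3 and Interleukin-16, and the titles were followed.

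The gene by gene course differed. Ifitm1 was at 6.77 CPM with IL-2 and 6.89 with IL-15 on day 3, and at 1953 and 2.19 CPM on day 10. At 50 IU/mL on day 5 it was at 730 CPM with IL-2 and 65.7 CPM with IL-15. Pgk1 was at 2500 and 2102 CPM on day 3 and at 1346 and 125 CPM on day 10. Mki67 was at 432 and 340 CPM on day 3 and at 109 and 1.33 CPM on day 10, so that the 2 cytokines, close on day 5, were far apart later. Bcl2 was at 132 and 139 CPM on day 3, and on day 10 the order was turned, with 1173 CPM with IL-2 and 517 CPM with IL-15. At 50 IU/mL on day 5 Bcl2 was at 449 CPM with IL-2 and 600.2 CPM with IL-15, a difference of 0.42 against 2.03 at 5 IU/mL. Gnl3 stayed higher with IL-15 (47.9 and 70.6 CPM on day 3, 65.2 and 102 CPM on day 10, 33.9 and 164 CPM at 50 IU/mL), as did Dapl1 (153 and 207 CPM, 23.2 and 91.5 CPM, 18.9 and 158 CPM).

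**Figure D5:**
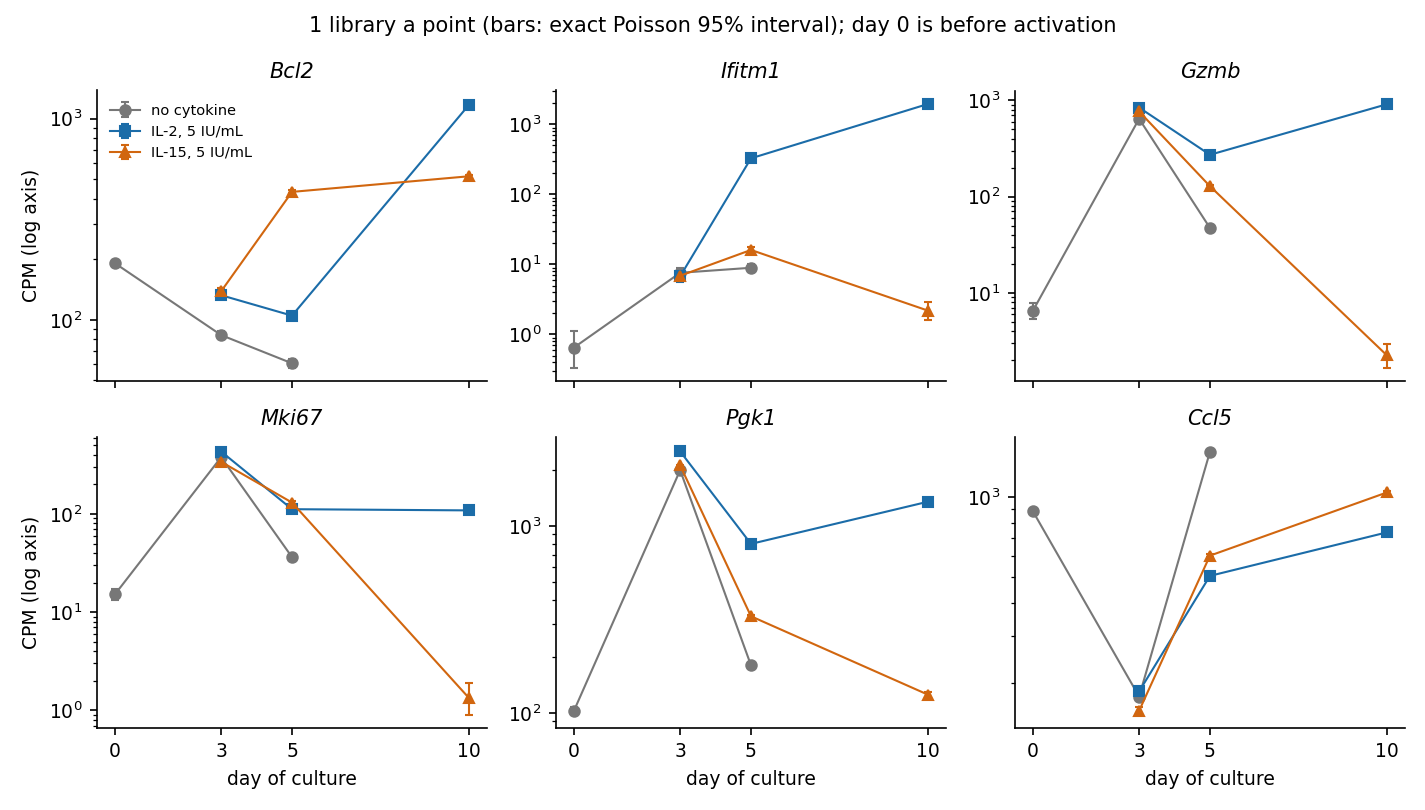
Levels of 6 genes by day of culture without cytokine and with IL-2 or IL-15 at 5 IU/mL, in CPM on log axes, 1 library a point, with exact Poisson intervals. The 2 cytokine libraries lie close on day 3, Ifitm1, Gzmb, Mki67 and Pgk1 lie far lower with IL-15 on day 10, and the order for Bcl2 turns between days 5 and 10.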

How the data were processed

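Single-cell RNA counts of 3 day 5 libraries, 1 a condition, were compared. Per the labels and the submitters' processing notes, the authors used Cell Ranger, Seurat 4.0.1 and 3.0.2 and build mm10; roles and settings are not given in the sources used here. The deposited tables hold whole-number UMI counts per gene and cell. The deepest barcode in the 3 held 13385 UMIs and the shallowest 1015. Cells were kept at 1000 or more UMIs, 500 or more genes and at most 10% mitochondrial UMIs, which removed 0 cells from the 3 libraries. No doublet caller was run and possible doublets were kept. Counts were summed per library, scaled to CPM and compared as log2(CPM + 1) among genes with at least 20 CPM in either library, over 17516 genes (Python 3.11.15, numpy 2.4.6, scipy 1.17.1). Since each condition is 1 library, no model was fitted. Intervals are exact Poisson (CPM) or Clopper-Pearson (shares) at 95%. The calculation was tested on simulated counts with known changes. Named genes were the 8 highest and 8 lowest per comparison at 50 CPM or more, plus members of 21 programme lists (583 genes found). The comparison, the lists and the tests were chosen with earlier results of these data known. Overlaps and shared 31-base words came from GENCODE vM21. Alternatives were other cell filters, cells without a Mki67 or Top2a UMI, TMM (edgeR 4.0.16, R 4.3.3), totals leaving out ribosomal protein and mitochondrial genes, the mean over cells, pseudocounts and filters on low values. Other libraries entered only the day and dose context. Some genes are not reported here.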

Additional observations from a re-analysis of the deposited data

Results flagged for a closer look

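Of the named genes, 4 at least 2-fold higher with IL-15 than with IL-2 on day 5 at 5 IU/mL were at least 2-fold lower with IL-15 in another pair of libraries. These reversals between days or doses were not tested, since each is 1 library against 1. On day 10 at 5 IU/mL the difference of IL-15 minus IL-2 in log2(CPM + 1) was -1.18 for Bcl2, -2.29 for Clspn and -3.80 for Hist1h2ap. On day 5 at 50 IU/mL it was -1.66 for Hist1h2ap and -2.74 for Myb. Mki67 was at 1.33 CPM with IL-15 and 109 CPM with IL-2 on day 10, and its part in the values of Clspn and Hist1h2ap, which are replication genes, was not tested. Hist1h2ap is a histone gene with near-identical copies.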

How the results depend on the processing

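No paired analysis was possible because each condition is 1 library. For the same reason no library could be left out, and counting error is the only error measured. Under 8 alternatives, 382 of 384 values of the 33 named genes kept their sign. Of these, 48 were fixed, since taking all barcodes left the cells as they were. The values with a pseudocount of 10 CPM were fixed too, since a pseudocount cannot turn a sign. The genes were named for their large differences, so a kept sign is a weak check. The 2 values that did not keep it, among cells with neither Mki67 nor Top2a UMIs, were Mki67 (IL-15 against none, 0 by construction) and Hist1h2ap (IL-15 against IL-2, -0.128). In the order higher and lower for IL-2 against none, IL-15 against none and IL-15 against IL-2, the counts at least 2-fold apart without a filter were 378 and 50, 204 and 36, and 48 and 206. A 100 CPM filter gave 28 and 1, 16 and 4, and 6 and 12. A pseudocount of 10 CPM gave 63 and 8, 34 and 6, and 7 and 23. Totals leaving out ribosomal protein and mitochondrial genes gave 173, 143 and 36 higher. For IL-15 against none, cells without a Mki67 or Top2a UMI gave 22 higher and 11 lower, leaving out cells over 2 times the median UMIs gave 38 higher, and the mean over cells gave 45 higher. The share of higher genes among those 2-fold apart was then 66.7%, 69.1% and 75.0%, against 81.5% with all cells summed. For IL-2 against none a 100 CPM filter moved that share from 85.6% to 96.6%, and for IL-15 against IL-2 no filter moved it from 30.99% to 18.9%. The share of cycling cells (none, IL-2, IL-15) was 4.50%, 8.93% and 10.6% at 1000 UMIs a cell, 13.8%, 18.7% and 21.1% without thinning, 85.1%, 75.5% and 78.2% by at least 3 cell cycle UMIs, and 6.29%, 10.1% and 10.6% without cells over 2 times the median UMIs. With at most 5% mitochondrial UMIs it was 13.5% with IL-2. The cause of these shifts was not tested, except that a stricter filter tests fewer genes.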
